A study of Mus musculus with 8 samples.

Results

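Cytosolic ribosomal protein genes encode the proteins that, with ribosomal RNA, build the ribosomes of the cytoplasm. They were taken by symbol, as Rpl or Rps followed by digits and any further letters or digits, Rplp0 to Rplp2 and Rpsa, with numbered pseudogenes and the S6 kinases left out. The rule found 93 of the 54838 genes in the files, 55 with large subunit symbols and 38 with small subunit symbols. It used names only, so no measured value chose a gene. Of the 93, 86 passed the filter on low counts and were tested. Rpl10l, Rpl32l, Rpl39l, Rps12l1 and Rps4l had 0 counts in every library, Rpl3l had 1 count in all, and Rps3a3 had 32.79 expected counts over the 8 libraries. The annotation gives 7 of the 93 as pseudogenes, and 3 of these were tested (Rpl37rt, Rpl6l and Rps3a2). Rps19bp1 matched the rule, although it encodes a protein that binds RPS19 and is not itself a ribosomal protein.

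RNA-seq had been run on 8 libraries of cultured mouse hepatocellular carcinoma cells. All derive from the 3H3 line, which was established from a liver tumour of a C57BL/6 MC4R-KO mouse on a high-fat diet and carries HrasQ61L. The single library labelled 3H3P comes from 3H3 cells with Trp53 knocked out by CRISPR/Cas9. The 7 libraries labelled 3H3PM carry the same knockout and ectopic MYC, and each comes from a subclone recovered from tumours that the 3H3PM cells formed in nude mice. The subclones are numbered 1, 2, 3, 6, 7, 8 and 9, with 1 library each, so the spread between them is a spread between isolates. The library labelled 3H3P had no replicate and was assumed to vary as they do. Ectopic MYC, growth as a tumour and isolation of a subclone came together in these libraries, and their parts in a difference cannot be told apart. Further subclones of the series were not analysed here.

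The small ribosomal subunit reads the mRNA and the large subunit joins the amino acids, and a cell needs their proteins in matched amounts. Most mRNAs of ribosomal proteins begin with a C and a run of pyrimidines, the terminal oligopyrimidine or TOP motif, through which mTORC1 and LARP1 control their translation. MYC is known as an activator of ribosomal protein genes and of ribosomal RNA synthesis. Several free ribosomal proteins, RPL5 and RPL11 first among them, bind MDM2 and so stabilise p53, a route with no p53 to act on in cells that lack it.

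The start regions of 9 of the genes are shown, among them the largest rise and the paralog pairs of Rps27 and Rpl22. Each line gives 15 bases before and 15 bases from the RefSeq transcript start, 5′ to 3′ on the strand of the gene. Capitals mark a C followed by at least 5 bases that are each C or T, counted from a C between 10 bases before and 15 bases after the start. In Rpl7a and Rps27l the pyrimidines continue before the first capital, which lies 10 bases before the start. The marked run of Rps27l ends before the recorded start. The sequences and starts are from RefSeq (GRCm38.p6).
Rps27, chr3:90213634-90213663, minus strand: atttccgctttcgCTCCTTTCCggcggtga
Rps27l, chr9:66946071-66946100, plus strand: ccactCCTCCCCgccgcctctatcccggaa
Rpl22, chr4:152325711-152325740, plus strand: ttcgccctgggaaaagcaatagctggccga
Rpl22l1, chr3:28805493-28805522, plus strand: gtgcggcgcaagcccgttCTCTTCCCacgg
Rps24, chr14:24490663-24490692, plus strand: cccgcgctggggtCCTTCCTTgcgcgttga
Rps18, chr17:33955651-33955680, minus strand: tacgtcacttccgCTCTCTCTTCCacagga
Rpl15, chr14:18270972-18271001, minus strand: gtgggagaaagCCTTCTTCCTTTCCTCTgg
Rpl7a, chr2:26910792-26910821, plus strand: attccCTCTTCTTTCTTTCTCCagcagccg
Rpl37, chr15:5116598-5116627, plus strand: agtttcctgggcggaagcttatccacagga
The RefSeq table held a start for 68 of the 93 genes, and 38 of these (55.9%) had a run, against 6735 of all 27025 genes in the table (24.9%). A recorded start can lie some bases from the start used in these cells. Where no run was found, only these letters are absent from this window. The E-box CACGTG, a palindrome that MYC and other factors can bind, was in the 300-base window (250 bases before and 50 after the start) of 6 of the 68 genes (8.82%) and of 8.09% of all genes. Tested genes with a pyrimidine run had a median log2 fold change of 0.39 (36 genes, 8 called higher and 1 lower), and those without had 0.43 (28 genes, 7 called higher). Some genes called higher without a run, such as Rps7 and Rps25, are not among the sequences shown.

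The files held 12838521 to 17987068 expected counts per library, of which ribosomal protein genes took 838143 to 1459669. Counts of the mouse Myc gene did not show the ectopic MYC of the labels, which stood at 85.2 CPM (counts scaled to library size with TMM factors) in the single 3H3P library against a subclone mean of 6.54 ± 3.58 CPM (SD, n = 7). Whether the introduced sequence would be counted there was not tested, and the labels are used as names. Trp53 transcript stood at 212 CPM against 53.9 ± 7.45 CPM, which checks no frameshift. Mdm2 stood at 111 CPM against 41.4 ± 4.77 CPM (log2 fold change −1.42). The 9 hepatocyte markers summed to 1366 CPM in the former, mostly Apob and Trf, and to 4.37 to 35.5 CPM in the subclones. Alb, which defines hepatocytes, was at 3.67 CPM and 0.323 CPM. The 4 epithelial markers summed to 1761 CPM against 73.1 to 223 CPM. Krt8 was at 543 CPM against a subclone mean of 29.6 CPM, Krt18 at 690.4 against 72.4 and Cdh1 at 527 against 34.3, and Epcam was at 0 throughout. The fibroblast and stellate list summed to 119 CPM against 104 to 502 CPM, but from different genes. Dcn gave 116 CPM of the former and was at 0.00989 CPM in the subclones, where Pdgfrb was at 114 ± 20.5 CPM against 0.747 CPM and Pdgfra at 79.5 ± 134 CPM against 0.436 CPM. The macrophage list summed to 14.7 CPM against 10.2 to 31.1 CPM. The endothelial list reached 2.15 CPM at most, and the lymphocyte list 0.0662 CPM, with 4 of its 6 genes at 0. The part of these differences in the results was not tested.

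Ribosomal protein genes took a larger share of the transcripts in every subclone than in the library labelled 3H3P. By TPM, a transcript level corrected for gene length and scaled to the same total in each library, they made up 15.4% of that library. In subclones 1, 2, 3, 6, 7, 8 and 9 they made up 23.8%, 23.1%, 24.1%, 21.9%, 20.6%, 20.4% and 20.3%. The lowest subclone thus lay above the library labelled 3H3P, and the mean of 22.0% ± 1.65 (SD, n = 7) was 1.43 times its share. An exact two-sided permutation test over libraries gave p = 0.125, the smallest value that 1 library against 7 allows. These are shares of the RNA in bulk libraries, in which a change in every cell and a change in some of the cells cannot be told apart, and the RNA per cell was not measured.

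Symbols of both subunits had larger shares in the subclones. Large subunit symbols went from 9.36% to 12.6% ± 0.821, a ratio of 1.35, and small subunit symbols from 6.00% to 9.36% ± 0.867, a ratio of 1.56. The ratio of small to large subunit TPM was 0.641 in the library labelled 3H3P and 0.740 ± 0.0314 in the subclones, between 0.696 and 0.786 (exact permutation p = 0.125, n = 7 subclones). Mitochondrially encoded genes took less in all 7 subclones, at 8.34% of TPM against 5.65% ± 0.577. With these left out of the total, ribosomal protein genes made up 16.8% and 23.3% ± 1.76. The nuclear genes for mitochondrial ribosomal proteins took 0.638% and 0.697% ± 0.0712 of TPM, a difference within the spread (exact permutation p = 0.625, n = 7 subclones).

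**Figure D1:**
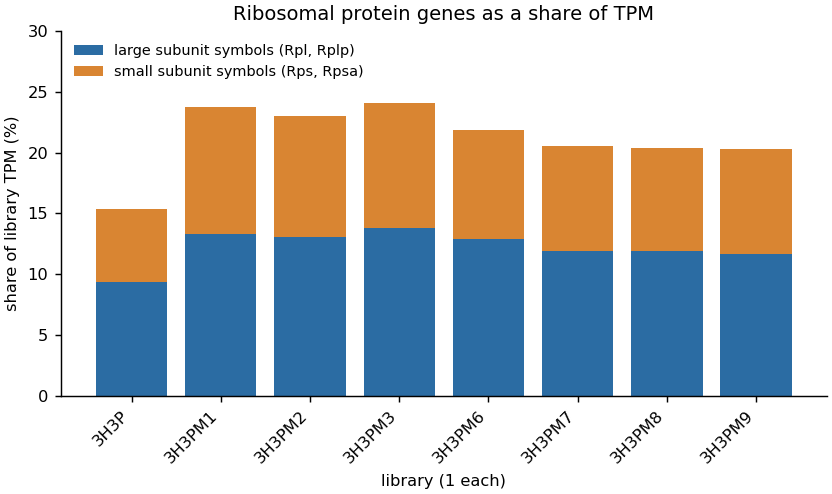
Share of each library's TPM (%, stacked bars from 0) taken by large subunit symbols (blue) and small subunit symbols (orange), 1 bar per library. The bar of the library labelled 3H3P ends at 15.4%, and the 7 subclones end between 20.3% and 24.1%.

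Gene by gene, 21 of the 86 tested genes were called higher in the subclones and 1, Rps27l, was called lower. For this count a call is an adjusted p under 0.05 by edgeR's quasi-likelihood test with Benjamini-Hochberg adjustment over all 14634 genes tested. Of all tested genes, 7.33% were called higher and 11.8% lower, and 19.1% were called in either direction. The log2 fold change was above 0 for 78 of the 86 ribosomal protein genes, against 51.2% of all tested genes. Its median was 0.43 over these genes and 0.03 over all tested genes, and it ran from −0.62 (Rpl22l1) to 1.14 (Rps27). All 7 subclones lay above the library labelled 3H3P in CPM for 58 of the 86 genes (67.4%), against 27.1% of all tested genes. All 7 lay below it for 2 genes, Rps27l and Rpl22l1, against 30.4% of all tested genes. The remaining 64 of the 86 were not called in either direction. The count of higher calls was 14 without subclone 3, 15 without subclone 6 and 29 by DESeq2, where 4.63%, 5.38% and 11.4% of all genes tested were called higher.

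Other short and other abundant mRNAs had medians near 0. Remaining tested genes with a deposited length under 1000 bases had a median log2 fold change of 0.02 (57 of 1501 genes called higher). Other genes with a mean TPM of 500 or more had a median of 0.03 (18 of 175 genes called higher).

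**Figure D2:**
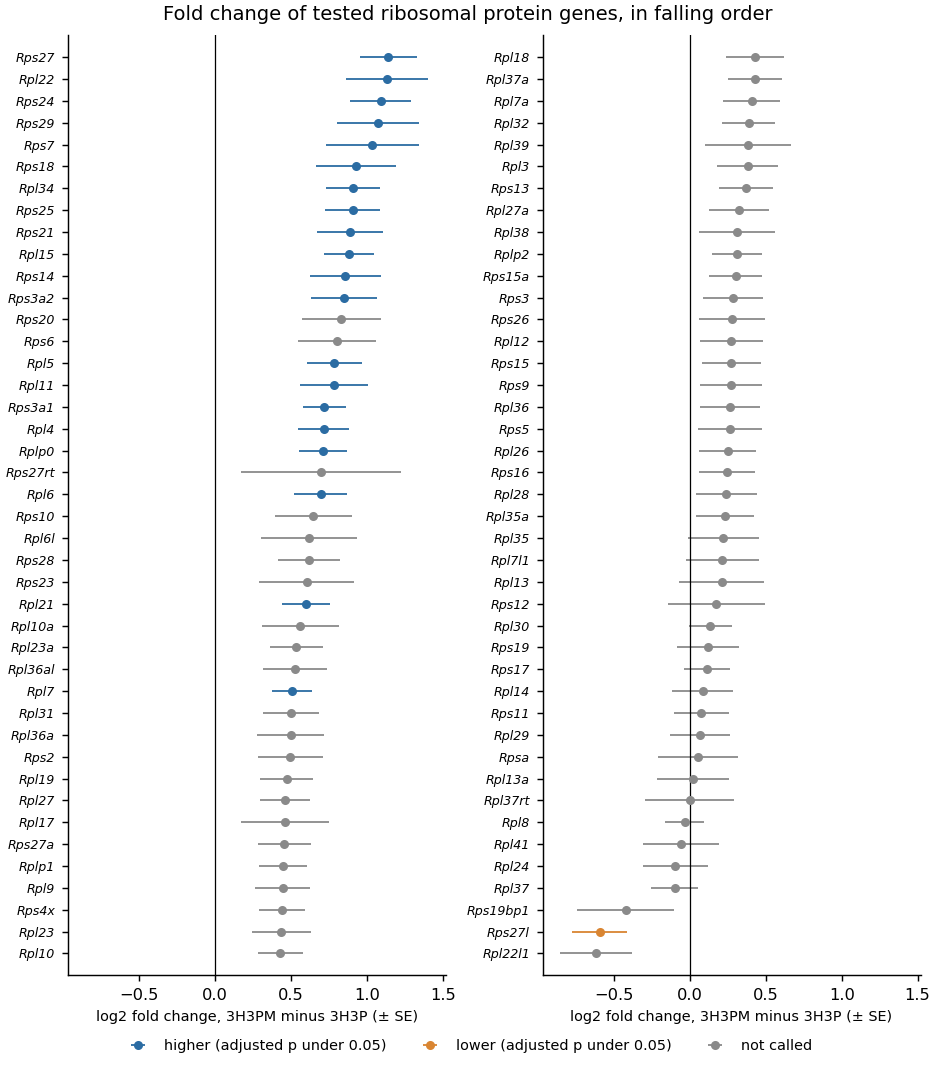
Log2 fold change of 84 of the 86 tested genes (x axis, subclones minus the library labelled 3H3P; points are the fit and bars ± SE), in falling order from the left panel to the right. The genes called higher lie between 0.51 and 1.14, and Rps27l, the gene called lower, lies at −0.59.

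Among the small subunit genes 11 of 35 tested were called higher (31.4%, against 7.33% of all tested genes). Their median log2 fold change was 0.49, against 0.03 over all tested genes. Rps27, a zinc-finger protein of the small subunit (ENSMUSG00000090733.6, chromosome 3, 90212522 to 90213651), had the highest fold change. Its TPM was 1626 in the library labelled 3H3P and had a minimum of 3523, a median of 3762 and a maximum of 4564 in the subclones. Every subclone was above 2 times the single library, and the log2 fold change was 1.14 (SE 0.19, edgeR adjusted p = 0.00403). The TOP-like run in its start region is the one shown above.

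Rps24, which is mutated in some patients with Diamond-Blackfan anaemia (ENSMUSG00000025290.17, chromosome 14, 24487125 to 24496959), was at 2827 TPM against 5275, 6142 and 6990 (minimum, median and maximum of the subclones). Its log2 fold change was 1.09 (SE 0.20, edgeR adjusted p = 0.00688). Rps29, another zinc-finger protein (ENSMUSG00000034892.8, chromosome 12, 69157722 to 69159186), was at 1518 TPM against 2804, 3266 and 4020. Rps7, needed for processing of the small subunit RNA (ENSMUSG00000061477.4, chromosome 12, 28630854 to 28635953), was at 859 TPM against 1458, 1704 and 2389. Rps18, a protein of the small subunit head (ENSMUSG00000008668.15, chromosome 17, 33951999 to 33956001), was at 3096 TPM against 5179, 5709 and 7712. In these 4 genes no subclone overlapped the single library, which the rule that named them required. Of all tested genes, 27.1% had all 7 subclones above it. Log2 fold changes were 1.08 for Rps29 (SE 0.27, edgeR adjusted p = 0.0246), 1.04 for Rps7 (SE 0.30, adjusted p = 0.0431) and 0.93 for Rps18 (SE 0.26, adjusted p = 0.0377). Rps7 and Rps18 had wide spreads between subclones. The adjusted p of Rps7 was 0.0068 to 0.302 over all alternatives and that of Rps18 0.0061 to 0.0573, and neither was called without subclone 3 or without subclone 6. Rps7 also lost its call without subclone 1 and without subclone 9. With chromosome medians removed, an adjustment described further on, Rps29 was at 0.51 (adjusted p = 0.211) and Rps7 at 0.47 (adjusted p = 0.302).

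The other small subunit genes called higher included Rps25, Rps21, Rps14, Rps3a1 and Rps3a2, with log2 fold changes of 0.72 to 0.91. Rps3a2 is annotated as a processed pseudogene and was at 29.97 TPM in the library labelled 3H3P, where its parent Rps3a1 was at 1729 TPM. Rps6, whose protein is phosphorylated by the S6 kinases (chromosome 4, 86854660 to 86857412), was at 1081 TPM against 1638, 1995 and 2341. Its subclones did not overlap the single library either, but the spread left it above the threshold (log2 fold change 0.80, SE 0.26, edgeR adjusted p = 0.0579, 0.0201 to 0.249 over the alternatives). Rps2, with the highest mean TPM of all in the subclones, was at 4694 TPM against 5902, 6661 and 8283 (adjusted p = 0.138).

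Among the large subunit genes 10 of 51 tested were called higher (19.6%, against 7.33% of all tested genes). Their median log2 fold change was 0.41, against 0.03 over all tested genes. Rpl22, a protein that binds structured RNA and is not needed for translation as such (ENSMUSG00000028936.15, chromosome 4, 152325742 to 152334071), had the highest value of these. It was at 861 TPM in the library labelled 3H3P against 1545, 2074 and 2302 in the subclones (log2 fold change 1.13, SE 0.27, edgeR adjusted p = 0.0203). Its start region had no run of the kind marked above, in contrast to that of its paralog Rpl22l1. The others were Rpl34, Rpl15, Rpl5, Rpl11, Rpl4, Rplp0, Rpl6, Rpl21 and Rpl7, with log2 fold changes of 0.51 to 0.91.

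Rpl5 and Rpl11 form a complex with the 5S ribosomal RNA, the one that binds MDM2 when free of ribosomes. Rpl5 (chromosome 5, 107900502 to 107909005) was at 843 TPM against 1385, 1512 and 1673. Rpl11 (chromosome 4, 136028265 to 136053428) was at 1144 TPM against 1491, 1980 and 2221, with the minimum in subclone 7. Both had a log2 fold change of 0.78 and were called higher (edgeR adjusted p = 0.0170 for Rpl5 and 0.0388 for Rpl11). Rpl11 was called in 10 of the 17 alternatives, with an adjusted p of 0.0074 to 0.205, and was at 0.44 with chromosome medians removed. Rpl23 and Rpl26, which also bind MDM2 or Trp53 mRNA, were higher in all 7 subclones by CPM but were not called, at log2 fold changes of 0.44 (edgeR adjusted p = 0.141) and 0.25 (adjusted p = 0.381). The cells have a Trp53 knockout in both groups.

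The stalk of the large subunit, which recruits elongation factors, is built from RPLP0 with RPLP1 and RPLP2. Rplp0 was called higher, at 2267 TPM against 3489, 3913 and 4431 (log2 fold change 0.71, SE 0.16, edgeR adjusted p = 0.0151). Rplp1 was at 4259 TPM against 5231, 6148 and 6660, and Rplp2 at 1807 TPM against 2120, 2370 and 2770. Neither overlapped the single library, and neither was called, with log2 fold changes of 0.45 (edgeR adjusted p = 0.0804) and 0.31 (adjusted p = 0.223). Rpsa, a small subunit protein also known as the laminin receptor, was at 1601 TPM against 1452, 1500 and 2362, with 3 of 7 subclones above the single library by CPM. Its log2 fold change was 0.05 (edgeR adjusted p = 0.911), and −0.037 without subclone 1, the subclone that holds the maximum.

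Rpl3, Rpl10, Rps4x, Rpl7a and Rps27a encode core proteins of the ribosome, that of Rps27a made as a fusion with ubiquitin. Their log2 fold changes were 0.38 to 0.46 and none was called, although all 7 subclones lay above the single library in each. Rpl39 was at 986 TPM against 1065, 1348 and 1779 (log2 fold change 0.38, edgeR adjusted p = 0.373). The tissue-restricted relatives Rpl39l and Rpl10l had 0 counts in every library, which allows up to 3 counts in each. Rps4l, annotated as a transcribed processed pseudogene, had 0 counts throughout as well. Rpl3l, known from heart and skeletal muscle, had its single count in subclone 2.

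A few abundant genes were nearly level. Rpl8, a large subunit protein near the catalytic centre, was at 2874 TPM against 2828, 2925 and 3208 (log2 fold change −0.03, edgeR adjusted p = 0.874). Its value was 0.043 with library size alone and 0.48 with chromosome medians removed (adjusted p = 0.0386), and its SD over the subclones of 0.06 on the log2 scale was among the smallest. Rpl37 was at 994 TPM against 877, 994 and 1047 (log2 fold change −0.10, and 0.42 with chromosome medians removed). Rpl41, the shortest ribosomal protein, was the most abundant of these genes in the library labelled 3H3P at 6136 TPM and was at 5007, 5635 and 7465 TPM in the subclones (log2 fold change −0.06, 0.019 with library size alone and 0.13 with chromosome medians removed). The 8 genes with a value at or below 0 included Rps19bp1, which is not a ribosomal protein gene, at −0.42 (edgeR adjusted p = 0.384). They also included Rpl37rt, annotated as a pseudogene, at −0.00054.

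Paralogs of 2 ribosomal proteins were lower in all 7 subclones, where their partners were higher. Rps27l, whose protein can replace RPS27 and which is a known p53 target gene (ENSMUSG00000036781.13, chromosome 9, 66946086 to 66949516), was at 633 TPM in the library labelled 3H3P. In subclones 1, 2, 3, 6, 7, 8 and 9 it was at 411, 504, 439, 406, 532, 379 and 450.3 TPM. All subclones were below the single library, and the gene was called lower at the edge of the threshold (log2 fold change −0.59, SE 0.18, edgeR adjusted p = 0.0489). Of the 17 alternatives 6 called it, with adjusted p from 0.0229 to 0.113. Rps27 itself was at 3762, 3603, 3804, 4564, 4174, 3523 and 3714 TPM in the same order. The ratio of Rps27 to Rps27l was 2.57 in the library labelled 3H3P and 8.80 ± 1.31 (SD, n = 7) in the subclones, between 7.15 and 11.3. Rps27l thus made up 28.0% of the pair in the former and 10.3% ± 1.30 in the latter.

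Rpl22l1 encodes the close paralog of RPL22, and RPL22 protein is known to lower the level of Rpl22l1 mRNA. The gene (ENSMUSG00000039221.10, chromosome 3, 28805436 to 28807424) was at 405 TPM in the library labelled 3H3P and at 242, 252, 293, 236, 377, 291 and 232 TPM in the subclones. All lay below the single library, subclone 7 least so, and the gene was not called (log2 fold change −0.62, SE 0.24, edgeR adjusted p = 0.0988). Over the alternatives its adjusted p was 0.0302 to 0.156. Subclone 7 had the highest Rpl22l1 and, at 1545 TPM, the lowest Rpl22 of the subclones. The others did not keep to an inverse order. Subclone 3 had the highest Rpl22, at 2302 TPM, with Rpl22l1 at 293 TPM. Subclone 9 had the lowest Rpl22l1, at 232 TPM, with Rpl22 at 1907 TPM. A link between the levels of the pair was not tested. The ratio of Rpl22 to Rpl22l1 was 2.13 in the library labelled 3H3P and 7.63 ± 1.84 in the subclones, with 4.10 in subclone 7 as the lowest. Rpl22l1 made up 32.0% and 12.2% ± 3.53 of the pair.

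For these pairs the exact two-sided permutation test of the ratio gave p = 0.125 each (n = 7 subclones against 1 library), the smallest possible. The other 2 pairs had ratios nearer to that of the single library. Rpl7 to Rpl7l1, a nucleolar relative that acts in ribosome assembly, had a ratio of 14.1, below that of every subclone, against 18.0 ± 2.82 (exact permutation p = 0.375, n = 7). Rpl36a to Rpl36al had a ratio of 3.94 against 3.95 ± 0.785, between 3.02 and 4.98 (exact permutation p = 1, n = 7), with both genes at log2 fold changes of about the same size, 0.50 and 0.52, and not called. Rpl7 was called higher at 1686 TPM against 2377, 2524 and 2697, and its SD of 0.05 over the subclones was the lowest of all genes in this set. Reads that match several copies were divided among them by the authors' counting, and 57 of the 93 genes had a fractional count in at least 1 library. The counts of Rps27, Rps27l, Rpl22 and Rpl22l1 were whole in all 8 libraries.

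**Figure D3:**
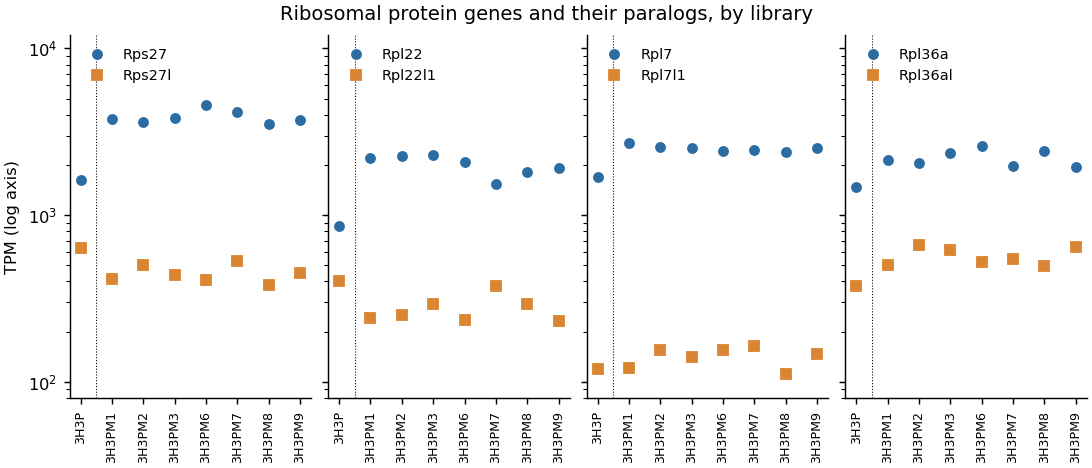
TPM (log axis) of 4 ribosomal protein genes (blue circles) and their paralogs (orange squares) in each library, with the library labelled 3H3P left of the dotted line. Rps27 and Rpl22 lie higher and Rps27l and Rpl22l1 lower in all 7 subclones, while the ratio of Rpl36a to Rpl36al is 3.94 in that library and 3.02 to 4.98 in the subclones.

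The genes lie on many chromosomes, and the median of all genes differed between chromosomes. A placement was available for 84 of the 86 tested genes, on 18 chromosomes. On each of the 18 the median of the ribosomal protein genes was above the median of all tested genes there, by 0.02 to 0.61 on the log2 scale (median 0.46). Over the 14 chromosomes with at least 3 of the genes the difference was 0.16 to 0.61. Chromosome 7, with 14 of the genes, had a median of 0.27 for them and −0.27 for all its genes. On chromosome 15, the lowest chromosome, Rpl8, Rpl37, Rpl3 and Rpl30 with Rps19bp1 had a median of −0.03 where all genes were at −0.49. On chromosome 12, the highest, Rps7, Rps29 and Rpl36al had a median of 1.04 where all genes were at 0.59. The medians for chromosome 4 were 0.83 and 0.37, and those for chromosome 14 were 0.88 and 0.27. Rpl8 and Rpl37 lay on a chromosome whose genes had a median below 0, and Rps7, Rps29, Rpl22, Rpl5 and Rpl11 on chromosomes whose genes had a median above 0. So did Rps27 on chromosome 3 (median 0.30) and Rps24 on chromosome 14 (median 0.27). Other genes lay on the opposite side of 0 from their chromosome's median. Rps25 (log2 fold change 0.91) and Rpl4 (0.71) are on chromosome 9, with a median of −0.10. Rps18 (0.93) is on chromosome 17 (median −0.01), and Rpl22l1 (−0.62) on chromosome 3.

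After each chromosome's median was subtracted, the SD of the log2 fold changes over the 84 genes went from 0.36 to 0.29 and their median was 0.47, with 79 of 84 above 0. When those medians were entered into the fit, 17 ribosomal protein genes were called higher, against 5.53% of all tested genes. Of these, 10 were among the 21 called without the correction, including Rps27, Rps24 and Rps18. Rpl22, Rpl5, Rpl11, Rplp0, Rps29 and Rps7 were among the 11 lost. Rpl3, Rpl8, Rpl18, Rpl30, Rplp1, Rplp2 and Rps13 were called there and not without the correction, and Rpl22l1 took the place of Rps27l as the gene called lower. DNA copy number was not measured in these files, and its part in the chromosome medians was not tested.

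**Figure D4:**
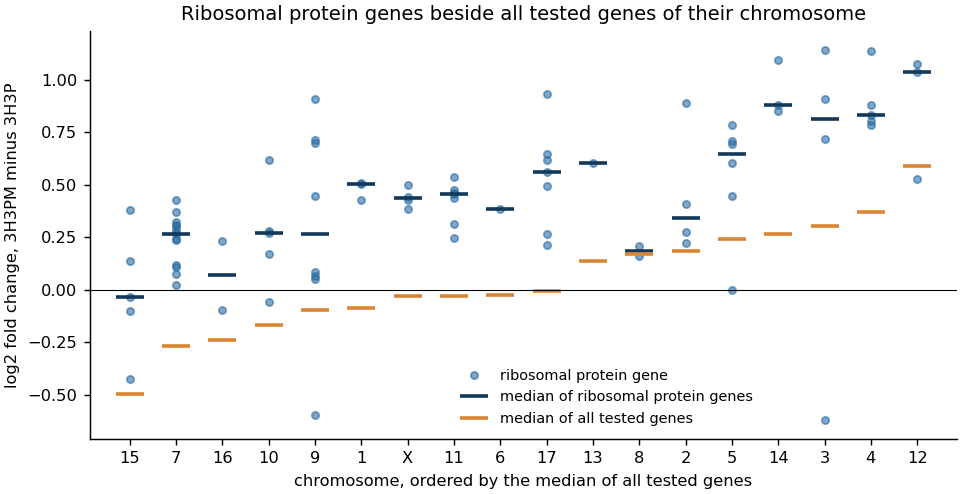
Log2 fold change (y axis, subclones minus the library labelled 3H3P) of the 84 placed genes (blue points) by chromosome, with the median of these genes (dark bars) and of all tested genes (orange bars), ordered by the latter. The dark bar lies above the orange bar on all 18 chromosomes, by 0.02 on chromosome 8 and by 0.61 on chromosome 14.

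The subclones differed little from each other in these genes. Among the 84 genes at a mean of at least 10 CPM the median SD of log2 CPM over the 7 subclones was 0.17, between 0.05 and 0.38. It was 0.24 over all 9128 such genes, a set not matched to the ribosomal protein genes in level. No ribosomal protein gene had an SD above 0.5, and 1099 of all genes did. Part of the spread ran through the genes together, most so in subclones 3 and 9. Their median deviation from each gene's own subclone mean was 0.07, 0.10, 0.17 and 0.02 in subclones 1, 2, 3 and 6 and −0.11, −0.10 and −0.15 in subclones 7, 8 and 9. In subclone 3, 84 of the 86 tested genes were above their own mean, and in subclone 9 only 7 were. The counts were nearer to an even split in subclones 1 and 6, at 52 and 48. Subclones 1, 2, 3 and 6 also had the larger libraries, at 15095394 to 17987068 expected counts against 12838521 to 14258440 in subclones 7, 8 and 9. The part of library size in these deviations was not tested. Set against the library labelled 3H3P, the median difference in log2 CPM was 0.57 in subclone 3 and 0.29 in subclone 9, the extremes of the 7.

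**Figure D5:**
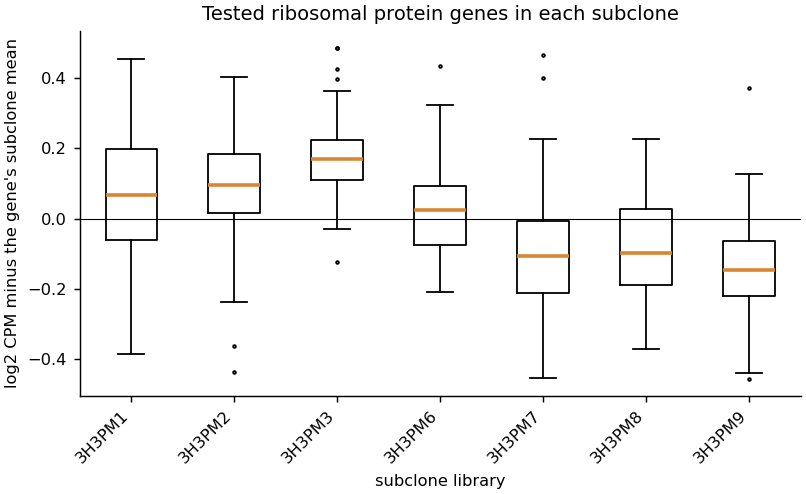
Deviation of log2 CPM from each gene's mean over the subclones (y axis) for the 86 tested genes, by subclone (boxes span the quartiles, orange lines are medians, whiskers reach 1.5 times the box and dots lie beyond). Medians are above 0 in subclones 1, 2, 3 and 6 and below 0 in subclones 7, 8 and 9.

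Rps12, Rps19bp1, Rps23 and Rpl17 were among the 5 genes with the largest spread. Rps12, a small subunit protein on chromosome 10, had deviations of 0.45, 0.11 and 0.43 in subclones 1, 2 and 3 and of −0.19 to −0.37 in the others. Rps23, which helps keep decoding accurate, was above its mean in subclones 1, 2 and 3 by 0.26 to 0.40 and below it in the other 4. Rpl17 had its extremes in subclone 2 (0.34) and subclone 9 (−0.46). Rps19bp1 ran the other way, with its lowest values in subclones 1 and 2.

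Genes with related roles were set beside them from lists chosen by function. Of 3 ribosomal or ribosome-bound proteins with other symbols none was called. Their log2 fold changes were −0.24 to 0.33, with −0.24 for Fau, a small subunit protein made with a ubiquitin-like part, and 0.33 for Rack1, a scaffold on the small subunit. Of 25 other mRNAs known to carry a TOP motif, a list that holds those 3 as well, 1 was called higher and none lower, with a median of 0.09, where 7.33% of all tested genes were called higher. The gene called was Eif2s3x, a subunit of the factor that brings the initiator tRNA (0.59, edgeR adjusted p = 0.0378), a call lost without subclone 2, 3, 6, 7 or 9. Tpt1 was at 0.70 (adjusted p = 0.0812), and the elongation factor gene Eef1a1, at 7902 TPM in the library labelled 3H3P, was at −0.22 (adjusted p = 0.529). A pyrimidine run was found in 8 of the 17 genes of this list with a RefSeq start (47.1%).

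Of 78 genes for mitochondrial ribosomal proteins 4 were called higher (Mrpl15, Mrps5, Mrpl24 and Mrpl9) and 3 lower (Mrpl49, Mrpl54 and Mrps18a), with a median of 0.11. Over all tested genes 7.33% were called higher and 11.8% lower, so neither count exceeded the background. Mrps5, Mrpl49 and Mrpl54 kept their call whichever subclone was left out. A run was found at 18 of the 69 with a RefSeq start (26.1%). Of 14 genes for chaperones and importers that escort new ribosomal proteins, 2 were called higher (14.3%, against 7.33% of all tested genes) and none lower, with a median of 0.47. Heatr3, which carries RPL5 into the nucleus, was at 74.9 CPM against 158 ± 22.0 CPM (log2 fold change 1.08, SE 0.24, edgeR adjusted p = 0.0155). The importin Ipo7 was at 328 CPM against 499.8 ± 49.3 CPM (0.61, adjusted p = 0.0445), a call lost without subclone 2, 3, 6, 7 or 9. All 7 subclones were above the single library for 9 of the 14 (64.3%), against 27.1% of all tested genes.

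Of 14 tested genes of mTORC1 signalling and the S6 kinases 1 was called higher and 2 lower, with a median of 0.20, beside 7.33% and 11.8% of all tested genes. All 3 encode kinases of the RSK and MSK families, which act below ERK or p38. Rps6ka1 was at 27.7 CPM against 105 ± 17.3 CPM (log2 fold change 1.92, edgeR adjusted p = 0.0024). Rps6ka3 fell by 0.65 on the log2 scale (adjusted p = 0.0092) and Rps6ka4 fell by 1.47 (adjusted p = 0.0054). Rps6kb1, which encodes an S6 kinase that phosphorylates RPS6, was at −0.05 and at 0.028 with library size alone. Rps6kb2, a further S6 kinase gene, had a log2 fold change of −0.82, with every subclone below the single library (29.6 CPM against 16.7 ± 3.01 CPM). It was not called (edgeR adjusted p = 0.0616, 0.0375 to 0.111 over the alternatives). Mtor was at 0.62 (edgeR adjusted p = 0.0683).

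Rows named as numbered pseudogenes of ribosomal protein genes numbered 289, of which 38 were tested. Their log2 fold change was above 0 in 37 of 38, against 51.2% of all tested genes, with a median of 0.50. Only 2 were called higher (5.26%, against 7.33% of all tested genes), so that count did not exceed the background. All 7 subclones lay above the single library for 15 of the 38 (39.5%), against 27.1% of all tested genes. Together they took 0.271% of TPM in the library labelled 3H3P and 0.466% ± 0.0237 in the subclones. Rpl34-ps1 stood at the level of its parent in TPM, at 1161 TPM against 2268 ± 232 TPM, where Rpl34 was at 1155 TPM against 2319 ± 181 TPM. In CPM, which is not corrected for length, it was lower, at 99.4 CPM against 180 ± 20.4 CPM. Rpl34 was at 218 CPM against 408 ± 36.7 CPM, and the split of reads between near-identical copies is uncertain. Rpl15-ps3 was at 16.8 TPM against 79.9 ± 15.8 TPM. With pseudogene counts added to their parents, 21 genes were again called higher, the same ones.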

How the data were processed

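The authors used GRCm38 (mm10) with STAR, RSEM, FastQC and DESeq2, per the submitters' processing notes; their versions and any strand setting are not given in the sources. Libraries were made with a directional kit from total RNA, per the labels' protocols. The expected count deposited by the authors, per the file headers, comes from RSEM, in which a read matching several genes is shared out among them; it was rounded to whole numbers. TPM values, also deposited by the authors, served for levels per length, shares and 2 alternatives. Testing used edgeR 4.0.16 in R 4.3.3 (filterByExpr, TMM, quasi-likelihood F test) over all 14634 genes, with 6 residual degrees of freedom from the subclones alone. The SE is the size of the log2 fold change divided by the square root of F. Alternatives used DESeq2 1.42.0 and limma 3.58.1 (voom, and log2 of TPM + 0.1 or + 1). Spread is the SD of log2 CPM with a prior count of 2. Gene positions are from GENCODE vM21 by versioned identifier. The script was tested on simulated data, in which every change put in was larger than the median change of the ribosomal protein genes.

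The genes and lists were chosen with earlier results of these data known. Genes were named by rule: up to 6 largest rises and 6 largest falls among called genes at a mean of at least 1 CPM with all subclones on the same side, genes with a paralog or a tie to MDM2, the stalk and Rpsa, the 5 of largest spread, those at 0 in a group, and Trp53, Myc and Mdm2. Rpl8, Rpl37, Rpl41, Rps2, Rpl15, Rpl34 and the related genes given with values were named with their values known. The adjustment by chromosome medians was chosen after seeing the data. Values of some genes are not reported here.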

Additional observations from a re-analysis of the deposited data

Results flagged for a closer look

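Single subclones stood apart from the others in 3 of 76 sets of 7 values examined, and about 1 in 20 such sets would do so by chance. Rps14 was at 559 CPM in subclone 9 and at 733 to 862 CPM in the other 6. Mrps18a was at 25.5 CPM in subclone 1 and at 32.5 to 36.6 CPM in the others. Mrpl54 was at 22.2 CPM in subclone 8 and at 27.5 to 31.2 CPM in the others.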

How the results depend on the processing

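No paired analysis was possible because the library labelled 3H3P has no replicate and the numbers of the subclones only name them. The median log2 fold change of ribosomal protein genes was 0.40 to 0.51 over the 17 alternatives, above the median of all tested genes in each, which was itself 0.03, 0.10 with library size alone and 0.21 with no filter. Genes called in either direction numbered 22, and 14 to 26 when 1 subclone was left out, with 14 without subclone 3. Genes called higher numbered 21, and 14 to 24 when 1 subclone was left out. Without subclone 3 the calls lost were Rpl11, Rpl21, Rpl7, Rps14, Rps18, Rps3a2 and Rps7, and 15 remained without subclone 6. Of all genes tested, 1072 of 14634 were called higher in the main fit, and 669 to 1185 when 1 subclone was left out. They numbered 1675 by DESeq2, 958 by voom, 1285 with library size alone and 922 of 23314 with no filter. Limma on log2 TPM with 0.1 and 1 added called 1347 and 1205 higher, and the fit with chromosome medians removed 809. For ribosomal protein genes the count was 29 by DESeq2, 26 by voom, 27 with library size alone and 19 with no filter. It was 29 and 30 by limma on log2 TPM with 0.1 and 1 added, and 17 with chromosome medians removed. Genes called lower numbered 1, and 0 with library size alone, with TMM without the ribosomal protein genes, with no filter and in both limma fits on TPM, and 0 to 2 when 1 subclone was left out (Rpl22l1 and Rps27l without subclone 7). The sign turned under at least 1 alternative for 9 of the 86 tested genes, among them Rpl13a, Rpl24 and Rpl37rt. With chromosome medians removed, values were −0.040 for Rpl36al, 0.096 for Rps19bp1, 0.42 for Rpl37, 0.13 for Rpl41, 0.48 for Rpl8 and 0.0062 for Rps6kb1. With library size alone they were 0.019 for Rpl41, 0.043 for Rpl8 and 0.028 for Rps6kb1. Limma on log2 TPM with 0.1 and 1 added gave 0.045 and 0.045 for Rpl8 and 0.16 and 0.15 for Rps6kb1. Rpsa was at −0.037 without subclone 1. Alternatives were compared over 71 of the genes named by the rule or given with values, members and related genes together. A value kept direction and side of the threshold in 1080 cases, gained a call in 31, lost one in 80 and turned sign in 14. No cause was tested. The gain in share of 6.65 percentage points was 6.57 without mitochondrially encoded genes, 6.85 with pseudogenes added and 2.19 as a share of counts, and 6.30 to 6.94 when 1 subclone was left out. The median SD over subclones was 0.16 to 0.19. Every comparison rests on the single library labelled 3H3P, at any depth.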
